A study of Equus caballus with 31 samples.

Results

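Gene expression in peripheral blood mononuclear cells (PBMC) was compared between osteoarthritic (OA) and healthy horses, over all genes of the deposited blood table. The comparison used every blood library of the study, 15 of 31: 6 from horses with naturally occurring OA (named OA_ with a number) and 9 from healthy horses (named ORC_ with a number), each from a separate animal. All horses carry the genotype label WT and the cell type label of mixed mononuclear cells, and the labels give no breed, sex, age or sequencing batch. OA was established by lameness evaluation, radiographs and the response to analgesia of the affected joint, and horses that had been medicated or injected in a joint in the preceding months were not enrolled.

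Osteoarthritis is a disease of the joint in which cartilage is lost and the synovial lining and bone are remodelled. Monocytes of the blood are recruited into inflamed synovium and become macrophages there, while lymphocytes travel between blood and lymph nodes guided by chemokine receptors. PBMC are a mixture of lymphocytes and monocytes, so that in such bulk samples fewer cells of a type and less RNA per cell cannot be told apart.

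The OA libraries held 31.7 to 34.8 M reads and the healthy libraries 23.9 to 32.2 M, and only healthy horse ORC_197 lay within the OA range (33.5 ± 1.14 M, SD, n = 6, against 27.5 ± 2.31 M, SD, n = 9; two-sided exact permutation p = 4e-04). Disease and depth therefore cannot be fully told apart, and a batch that follows disease was not tested. Healthy horse ORC_202 stood apart from the other libraries on both leading principal components (22.5% and 20.7% of the variance). Healthy horse ORC_197 was set off on the second (score 0.365, against 0.204 in ORC_208). On the first it lay near ORC_208 (-0.362 and -0.314). The 7 leukocyte identity markers, such as PTPRC and CORO1A, were at similar mean levels in OA (13.7 to 13.9 on the log2 scale) and healthy libraries (13.6 to 14.2), and limma called none (1 had an unadjusted p below 0.05; edgeR called 0 and DESeq2 1).

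Levels are read counts normalized by the median-ratio method. Changes are OA minus healthy on the log2(value + 1) scale, with the standard error (SE) and an adjusted p from limma with Benjamini-Hochberg adjustment over 13072 genes, and a gene is called when that p is below 0.05. By this rule 418 genes were higher in OA (3.20%) and 288 lower (2.20%), of which 170 and 105 changed at least 2-fold. The median change of all genes was 0.02. In 80 genes every OA library lay above every healthy library (0.612% of genes), and in 57 every OA library lay below (0.436%). Without ORC_197 and ORC_202 the counts were 835 and 559.

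The counts rested on few horses. They fell to 16 higher and 17 lower without OA_3850, to 17 and 18 without OA_9350, and to 14 and 17 without OA_9570. Without healthy horses ORC_200, ORC_207 and ORC_208, each in turn, they were 203 and 97, 146 and 78, and 159 and 101, while leaving out OA_1038 or ORC_202 raised them to 691 and 457, and 690 and 519. All 706 called genes kept their direction in each of these fits. They were picked as called in these same libraries, so a kept direction was close to fixed in advance. Because the counts rested on few horses, what follows is led by the 26 genes (0.199% of those tested) called whichever library was left out. Of these 21 carry a symbol, and 20 of the 21 are described here. Each of the 26 passed narrowly in its least favourable fit, with a limma adjusted p between 0.0424 and 0.0463.

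**Figure D1:**
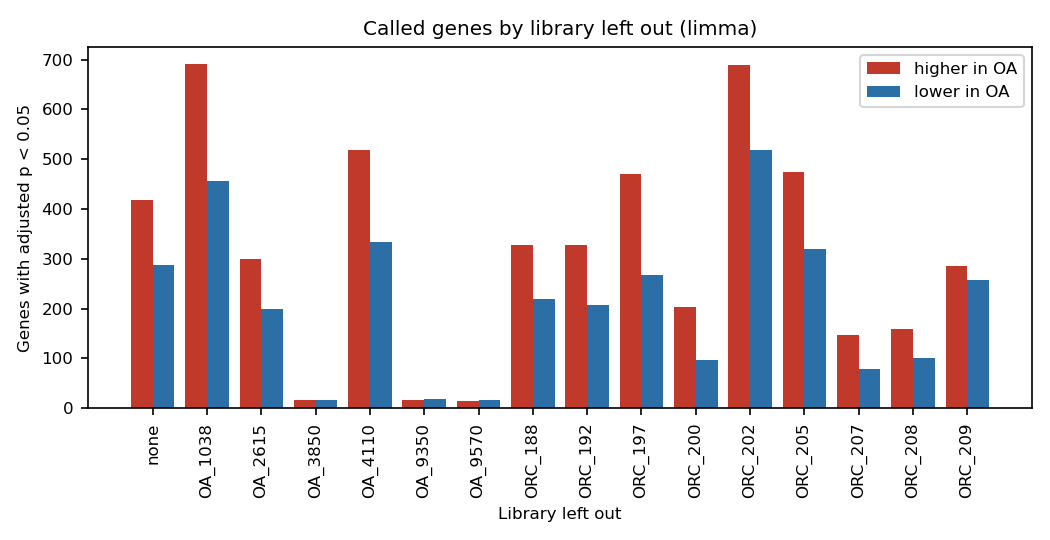
Number of genes with an adjusted p below 0.05 (y axis) in the full comparison and with each library left out in turn (x axis), higher in OA in red and lower in blue. Counts fell below 20 in each direction without OA_3850, OA_9350 or OA_9570.

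Among these stable genes 10 with a symbol were higher in OA. MAP3K9, a kinase upstream of JNK signalling (chromosome 24: 16709803 to 16780413, EquCab3.0), lay between 74.5 and 178 in healthy horses (median 112) and between 263 and 599 in OA (median 388). Its groups did not overlap, and the change was 1.72 (SE 0.24, adjusted p = 0.0116). EPS8, an actin-regulating adaptor of growth factor receptors (chromosome 6: 44165849 to 44336040), ranged from 51.6 to 185 in healthy horses (median 99.8) and from 216 to 569 in OA (median 415), a change of 1.92 (SE 0.30, adjusted p = 0.012). The 3 highest OA values of EPS8 were those of OA_9570, OA_9350 and OA_3850. TMEM117, a membrane protein, was a low gene with 5.29 to 22.9 in healthy horses and 39.8 to 93.9 in OA, highest in OA_1038 (change 2.41, SE 0.34). The transcription factor NFIA rose from a median of 297 in healthy horses to a median of 787 in OA, without overlap (change 1.39, SE 0.22). FOSL2, a member of the AP-1 family, lay between 964 and 1997 in healthy horses (median 1368) and between 2124 and 3616 in OA (median 3051), without overlap (change 1.05, SE 0.17, adjusted p = 0.012). ANK3, a scaffold that anchors membrane proteins to the spectrin skeleton (change 1.13, SE 0.19), and FLVCR2, a choline transporter of the haem transporter family (change 1.25, SE 0.22), were likewise higher in every OA horse.

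Both lysosomal enzymes in this set degrade glycosaminoglycans, the sulfated sugar chains of cartilage and cell surface proteoglycans. ARSB, which removes sulfate from dermatan and chondroitin sulfate (chromosome 14: 87023516 to 87188663), lay between 966 and 1870 in healthy horses (median 1364) and between 2000 and 3629 in OA (median 2426). HGSNAT, which acetylates heparan sulfate for its breakdown (chromosome 27: 2446559 to 2477155), lay between 928 and 1477 (median 1108) and between 1588 and 2429 (median 2003). Neither gene's groups overlapped, and each changed by 0.83 (SE 0.14, adjusted p = 0.012). GBE1, the branching enzyme of glycogen, rose from a median of 1132 to a median of 1975, also without overlap (change 0.87, SE 0.14).

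In the opposite direction 10 of the stable genes described were lower in OA. CHST2, which adds the sulfate to the sugars of L-selectin ligands (chromosome 16: 78543119 to 78544703), lay between 2289 and 4140 in healthy horses (median 2883) and between 553 and 1866 in OA (median 1160). The groups did not overlap, OA_9350 was lowest, and the change was -1.40 (SE 0.21, adjusted p = 0.0116). PAFAH2, an intracellular enzyme that hydrolyses platelet-activating factor and oxidized phospholipids (chromosome 2: 29525138 to 29597232), ranged from 4550 to 7540 in healthy horses (median 5981) and from 1286 to 3800 in OA (median 2618), a change of -1.29 (SE 0.20, adjusted p = 0.0116). DEGS2, a sphingolipid desaturase and hydroxylase, fell by 2.19 (SE 0.37), from a median of 123 to a median of 30.6. ID3, an inhibitor of E proteins in lymphocytes and a target of BMP signalling, lay between 4038 and 7010 in healthy horses and between 1197 and 3548 in OA (change -1.19, SE 0.20). PDCD1, the inhibitory receptor PD-1 of activated T cells, lay between 426 and 555 in healthy horses and between 229 and 373 in OA, a narrow spread in both groups (change -0.69, SE 0.12, adjusted p = 0.012). CDCA7, a cell cycle gene (-1.04, SE 0.17), was lower in every OA horse as well. The neural genes GFRA1, a receptor for GDNF (-2.67, SE 0.46), and LRFN1, a synaptic adhesion protein (-2.17, SE 0.32), were low in all libraries, with no OA value above 27.1 for either. AEBP1, a matrix-associated protein (-1.55, SE 0.26), and ZDHHC14, a palmitoyltransferase (-1.41, SE 0.21), completed the set. For these 2 the ranges touched: the highest OA value of AEBP1 was 99.1 against a lowest healthy value of 84.6.

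**Figure D2:**
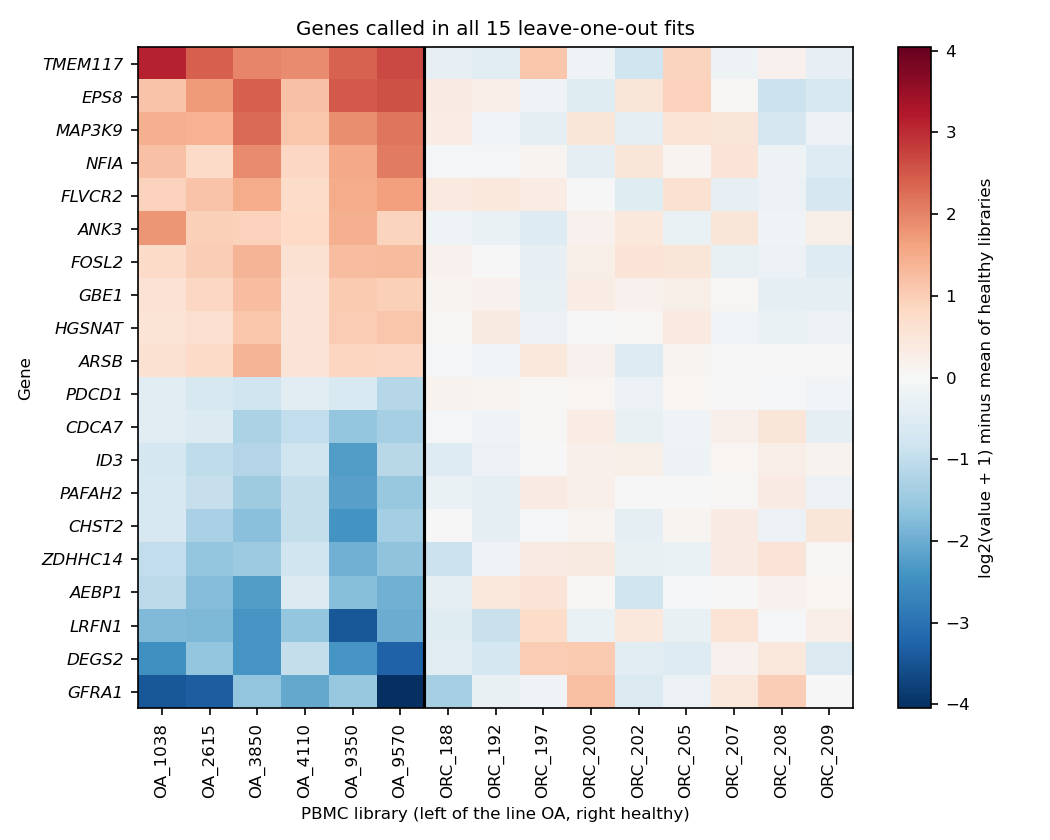
Heat map of 20 genes with a symbol that were called whichever library was left out (rows) in the 15 blood libraries (columns, OA left of the line). Colour is log2(value + 1) minus the mean of the healthy libraries; in most rows the OA columns are on one side of all healthy columns.

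Monocyte markers moved with the groups. The summed level of the 11 monocyte markers in the table was 95812 to 252652 in OA and 45107 to 122637 in healthy horses, and none was at 0 in every library. All 10 tested had positive changes (median 1.01), and 3 were called higher, VCAN (1.43) and CCR2 (1.17) among them. The marker CD14 lay between 15.5 and 131 in healthy horses and between 73.2 and 435 in OA, and limma did not call it. The list mean was highest in OA_9570, OA_3850 and OA_9350 (12.9, 12.9 and 12.5), the same horses on which the number of calls rested, and lowest in ORC_209 (10.2). With the list mean as a covariate no gene was called, although 897 had an unadjusted p below 0.05. Of the genes called without it, 408 of 418 higher and 288 of 288 lower genes kept their direction. Only 110 of the higher and 157 of the lower genes also had an unadjusted limma p below 0.05. The median change went from 0.89 to 0.39 in the higher genes and from -0.78 to -0.55 in the lower genes. With depth as a covariate no gene was called either, 2779 had an unadjusted p below 0.05, and 417 of 418 higher and 287 of 288 lower genes kept their direction. In that fit 286 of the higher and 191 of the lower genes also had an unadjusted limma p below 0.05. All 20 stable genes described kept an unadjusted p below 0.05 with the monocyte covariate, and all but ARSB did with depth (0.25, unadjusted limma p = 0.213). These 20 had been picked as called whichever of the same libraries was left out. Low unadjusted p-values were therefore likely beforehand, and none of the 20 was called with either covariate. GFRA1 was at -2.67, as without the covariate, and ANK3 at 1.35, while FOSL2 (0.49), FLVCR2 (0.58), HGSNAT (0.43) and GBE1 (0.44) came to about 0.5. For many of the gene groups below the median with the monocyte covariate is given beside the group's own median. That covariate is a mean of monocyte markers, so in a group that holds some of these markers part of the shift is built in.

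**Figure D3:**
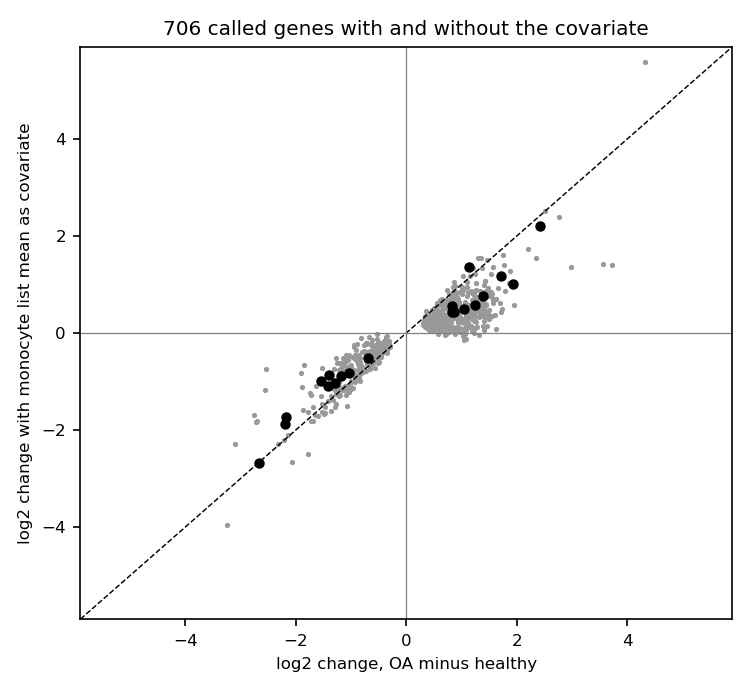
Log2 change of the 706 called genes in the comparison as fitted (x axis) and with the mean of the monocyte list as a covariate (y axis); black points are the 20 stable genes described and the dashed line marks equal values. Most higher genes lie below the line, with a median of 0.39 against 0.89, whereas the lower genes lie nearer to it, with a median of -0.55 against -0.78.

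Markers of other cell types were tested beside these. Of 10 neutrophil markers 1 was called higher, S100A12 (1.40), and the list mean ranged from 7.70 to 9.77 in OA and from 6.79 to 8.96 in healthy horses. All 10 changes were positive in limma (median 1.23, and 0.27 with the monocyte covariate). Without ORC_197 and ORC_202 limma called 4 of the 10 higher. All 14 B cell markers had negative changes (median -0.78) and 1 was called lower, the kinase BLK (-1.09). With the monocyte covariate 9 of the 14 changes were positive and the B cell median was 0.097. Of 10 plasma cell markers 3 were called lower, among them JCHAIN, the joining chain of secreted antibody (-1.48, SE 0.40). The plasma cell median was -0.79, and -0.67 with the monocyte covariate, where all 10 changes were negative. No T cell (19 tested), cytotoxic and NK cell (18), platelet (12) or erythroid marker (8) was called by limma, where 6, 4, 2 and 3 had an unadjusted p below 0.05. DESeq2 called 2 T cell markers lower, and 3 cytotoxic and 2 erythroid markers higher, and edgeR called none of these. Of the stromal and epithelial markers 4 of 12 in the table passed the filter on low values, and none was called by limma, edgeR or DESeq2 or had an unadjusted p below 0.05. The part of these cell types in the results below was not tested beyond the covariate fits.

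Calls among genes for lysosomal enzymes and scavenger receptors were all on the higher side. Of 32 tested genes for lysosomal enzymes and V-ATPase, 6 were called higher and none lower, and 29 changes were positive (median 0.39, and -0.03 with the monocyte covariate). PSAP, the precursor of the activators of sphingolipid hydrolysis, lay between 49352 and 119703 in healthy horses and between 92899 and 186751 in OA, highest in OA_3850 and OA_9570 (change 0.77, SE 0.20, adjusted p = 0.0357). The protease CTSB (0.78), the hexosaminidase subunit HEXA (0.59), the membrane protein LAMP2 (0.57) and GUSB, beta-glucuronidase (0.52), were also called. The other was ATP6V1A (0.94), a subunit of the proton pump, named after its value was seen. None of the 5 given before it was called without OA_3850, without OA_9350 or without OA_9570. Of 17 lectin and scavenger receptors 3 were called higher (median 0.85, and -0.08 with the covariate): the collectin COLEC12 (1.42), CD93 (0.99) and the lysosomal receptor SCARB2 (0.54). With the covariate COLEC12 was at 1.07, CD93 at 0.56 and SCARB2 at 0.18.

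Receptors for interleukin-1 and complement were among the higher genes. Of 19 genes of the inflammasome and interleukin-1 family 4 were called higher and none lower (median 0.90, and 0.08 with the covariate). IL1R1, the signalling receptor for interleukin-1, lay between 145 and 315 in healthy horses (median 199) and between 275 and 807 in OA (median 413), highest in OA_9570 and OA_3850. The groups overlapped only slightly, and the change was 1.24 (SE 0.25, adjusted p = 0.019). Its co-receptor IL1RAP changed by 1.27 (SE 0.28), and the sensors NLRP3 and NAIP by 0.95 (SE 0.23) and 1.18 (SE 0.31). C5AR1, the receptor for the complement fragment C5a on myeloid cells, lay between 941 and 7485 in healthy horses (median 3428) and between 4899 and 13860 in OA (median 9706), a change of 1.47 (SE 0.37, adjusted p = 0.0344). Its paralog C5AR2, which lies beside it on chromosome 10, lay between 42.6 and 235 in healthy horses and between 136 and 484 in OA (adjusted p = 0.0353), and the complement receptor subunit ITGAX changed by 0.71 (SE 0.16). With the covariate C5AR1 was at 0.14, C5AR2 at 0.47 and ITGAX at 0.60, and the complement list as a whole went from a median of 0.65 over 17 genes to 0.11. Of 28 cytokine and growth factor receptors 5 were called higher and 1 lower (median 0.27). With the covariate the median of this list was 0.00045, and 0 of the 28 had an unadjusted limma p below 0.05. The higher genes included the TNF receptors TNFRSF1A (0.57) and TNFRSF1B (0.63), IL10RA (0.54), and IL13RA1 (1.06), and the lower gene was IL21R (-0.55), a receptor of lymphocytes. IL12RB2, the chain that gives T and NK cells their response to interleukin-12, was higher at 1.03 (SE 0.26) and was at 1.17 with the covariate. None of 14 tested genes of the study's cytokine immunoassay panel was called by limma (median 0.12, and 0.018 with the covariate), although 1 was called higher without ORC_197 and ORC_202. Nor was any of 22 NF-kappa-B genes (median -0.02, and 0.083 with the covariate), 22 Toll-like receptor genes (0.16 and 0.0086) or 12 cytosolic nucleic acid sensors (-0.09 and -0.11). Without ORC_197 and ORC_202 limma called 3 Toll-like receptor genes higher and 1 lower. Of these 4 lists, in the order given, 1, 3, 6 and 1 genes had an unadjusted p below 0.05, edgeR called 0, 1, 0 and 0, and DESeq2 called 0, 2, 3 and 1.

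**Figure D4:**
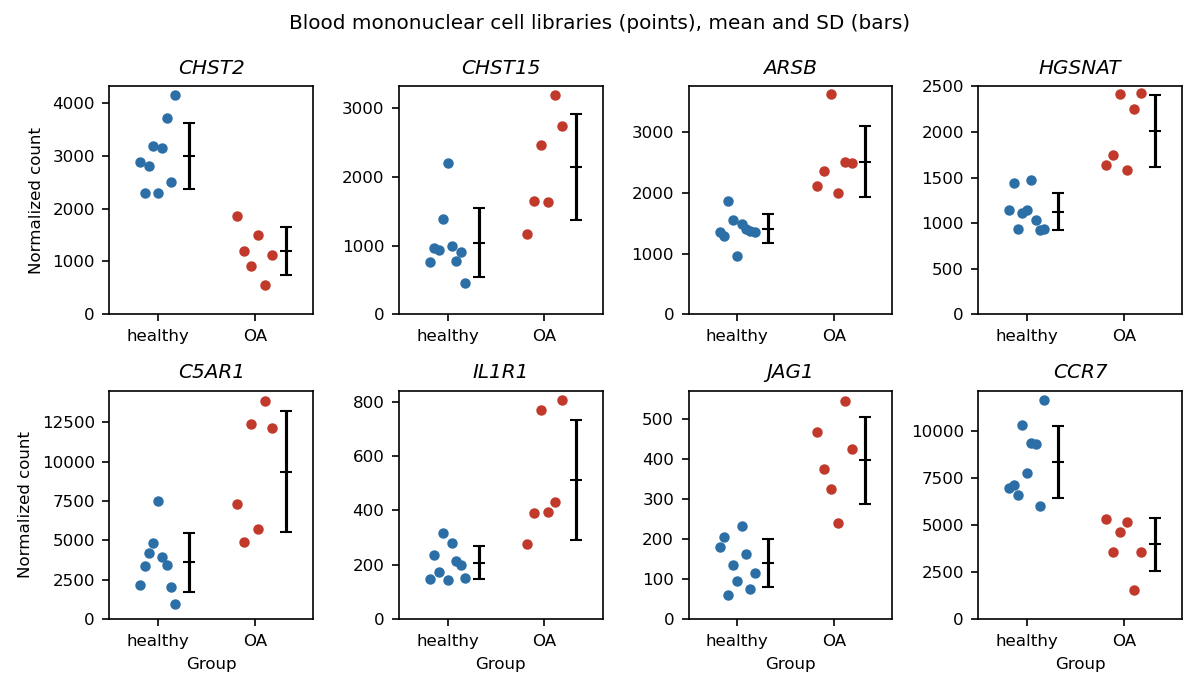
Normalized counts (y axis, from 0) of 8 genes in the healthy (blue, n = 9) and OA (red, n = 6) blood libraries, each point a horse, with the group mean and SD as a black bar. CHST2, CCR7, ARSB, HGSNAT and JAG1 show no overlap between groups, whereas CHST15, C5AR1 and IL1R1 overlap.

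Calls among homing receptors and lymphoid transcription factors were all on the lower side. Of 20 genes of naive and memory homing 4 were called lower and none higher (median -0.32, and -0.17 with the covariate). CCR7, which guides naive and central memory T cells and mature dendritic cells into lymph nodes, lay between 6012 and 11650 in healthy horses (median 7784) and between 1542 and 5356 in OA (median 4111). No OA horse reached the healthy range, OA_9350 was lowest, and the change was -1.15 (SE 0.23, adjusted p = 0.0196). The other 3 were CCR6 (-1.15), CCR10 (-1.53), a receptor of skin-homing T cells and antibody-secreting cells, and S1PR1 (-0.51), which lymphocytes use to leave lymph nodes. GPR183, which positions lymphocytes by sensing oxysterols, changed by -0.83 (SE 0.20), GPR15, a homing receptor for gut and skin, by -0.69 (SE 0.17), and GPR132 by -0.62 (SE 0.14). In the family of orphan and adhesion receptors to which these 3 belong, 46 members were tested and 2 were called higher, ADGRE5 (0.65) and GPR137B (0.80). The lymphoid transcription factors called, 4 of 26, were all lower: ID3, TOX2 (-1.06), MYB (-0.53) and POU2AF1, and FCMR, the Fc receptor for IgM (-1.04), was the only one called of 11 Fc receptors. The median of the 26 lymphoid factors was -0.19, and 0.26 with the covariate, where 17 changes were positive. Of 18 checkpoint genes PDCD1 was called, and of 22 genes of T cell receptor signalling only the inhibitory kinase CSK (-0.45). The median of that signalling list was -0.07, and 0.19 with the covariate.

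Unnamed genes in 2 stretches of the genome were lower together. On chromosome 8 between 5000000 and 8000000, 17 tested genes have only an Ensembl identifier, and 16 of these had negative changes, 8 were called lower and none higher (median -1.73). The 23 named genes in the same stretch had a median of 0.08 and none was called. On chromosome 24 between 46000000 and 49000000, 14 of 15 unnamed genes were negative and 5 were called lower (median -1.44), against a median of -0.04 in the 19 named genes, of which GPR132 was called. Among all 1244 unnamed genes tested, 32 were called lower and 19 higher. Both stretches were chosen after the values were seen. As background, the lambda light chain and heavy chain loci of horse immunoglobulin lie on these chromosomes; whether the unnamed genes belong to them was not tested.

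Growth factor and developmental signalling genes changed on both sides. Of 19 tested growth and angiogenic factors and their receptors 5 were called higher and 1 lower (median 0.80, and 0.34 with the covariate). HGF, hepatocyte growth factor, lay between 239 and 653 in healthy horses (median 379) and between 554 and 1465 in OA (median 1123), a change of 1.33 (SE 0.27, adjusted p = 0.0202). Its receptor MET rose as well (0.98, SE 0.24). MERTK, a receptor with which macrophages take up dying cells, was higher by 1.13 (SE 0.28), while its ligand GAS6 was lower (change -1.18, SE 0.31). IGF2R, which takes up IGF-II and lysosomal enzymes, was higher by 0.80 (SE 0.18). Of 30 genes of Wnt, Notch and semaphorin signalling 4 were called higher (median 0.38, and 0.21 with the covariate). The Notch ligand JAG1 lay between 59.2 and 232 in healthy horses (median 135) and between 239 and 546 in OA (median 399), without overlap, and its change of 1.58 (SE 0.29, adjusted p = 0.017) was 1.36 with the covariate. The semaphorin receptor PLXNC1 (0.89) was at 0.76 with the covariate, the Wnt receptor FZD1 (1.14) at 0.58 and SEMA6B (1.02) at -0.06. Among 24 TGF-beta and BMP genes the co-receptor ENG (1.01), the receptor BMPR2 (1.17) and the secreted target TGFBI (0.88) were higher and ID3 lower. ENG and TGFBI were at 0.02 and -0.02 with the covariate. TNFSF14 (LIGHT), which costimulates T cells, was higher by 0.67 (SE 0.14), whereas TNFSF11, the osteoclast-inducing ligand RANKL, was lower (-2.07, SE 0.52, adjusted p = 0.0341). TNFSF11 was near the limit of detection, with 0 to 6.99 in OA and 7.74 to 35.7 in healthy horses.

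Matrix and clotting genes held the largest rise among genes that carry a symbol and average 50 or more in one group. FN1, fibronectin, lay between 34.4 and 3660 in healthy horses (median 699) and between 1053 and 17701 in OA (median 5210), with its highest values in OA_9350 and OA_3850. Its change was 3.73 (adjusted p = 0.0424), it was called in 6 of the 15 fits that left out a library, edgeR on the recovered reads did not call it (adjusted p = 0.0647), and with depth as a covariate it was -0.69. THBS1, thrombospondin, was higher in OA (medians 52866 against 10191; change 1.94, SE 0.43), and it belongs to both lists. Of 26 matrix proteins, proteases and inhibitors 5 were called higher and none lower (median 0.57, and 0.15 with the covariate). Of 18 coagulation and fibrinolysis genes 3 were higher, THBS1, the urokinase receptor PLAUR (1.47) and FGL2 (1.04), and 1 was lower, SERPINB6 (-0.72).

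Sulfotransferases changed in both directions. Of 18 tested members 2 were higher and 2 lower (median 0.12, and 0.23 with the covariate). CHST15, which forms the doubly sulfated chondroitin sulfate E, lay between 449 and 2206 in healthy horses (median 935) and between 1171 and 3184 in OA (median 2049), a change of 1.08 (SE 0.28, adjusted p = 0.0403). CHST11, which sulfates chondroitin at another position, changed by 0.96 (SE 0.27). Against these stood CHST2 and the sterol sulfotransferase SULT2B1 (-0.78, SE 0.20). With the covariate CHST15 was at 0.14, CHST11 at 0.55, CHST2 at -0.86 and SULT2B1 at -0.72.

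All 16 tested genes of a list of glucocorticoid-responsive genes had positive changes in limma (15 of 16 in edgeR), but only 2 were called. KLF9, a transcription factor induced by glucocorticoid and thyroid hormone, lay between 76.6 and 293 in healthy horses (median 176) and between 203 and 901 in OA (median 454), a change of 1.58 (SE 0.32, adjusted p = 0.0202). ZBTB16 changed by 1.44 (SE 0.32). The median of the list was 0.79, and 0.04 with the covariate, where 8 of 16 changes were positive. Of 18 clock genes CRY2 (0.44) and BHLHE40 (0.65) were called higher. Of 22 AP-1 and other early response genes FOSL2 alone was called, beside a list median of -0.05. Of 31 Kruppel-like and myeloid transcription factors 4 were called, all higher, among them RUNX2 (0.84), KLF9 and BACH1 (1.12), a haem-sensing repressor. MITF, a regulator of lysosomal genes, was higher in every OA horse (1.09, SE 0.20, adjusted p = 0.0164) and was at 0.35 with the covariate.

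**Figure D5:**
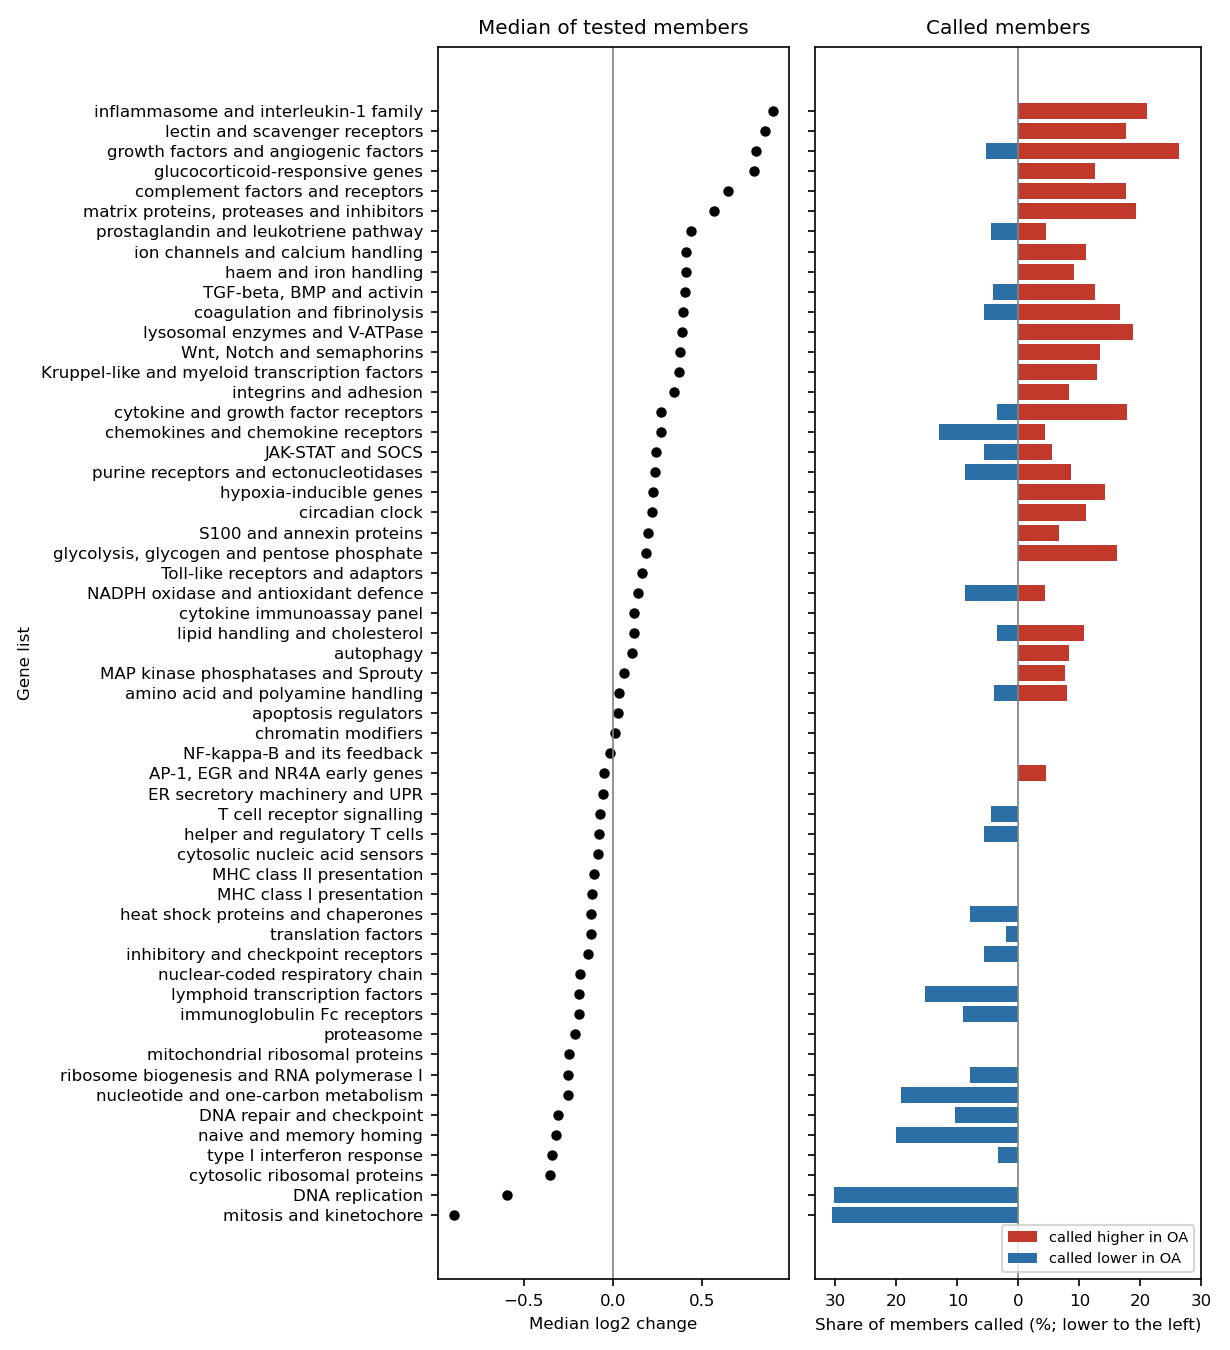
Gene lists (rows) ordered by the median log2 change of their tested members (left) and the share of tested members called higher (red) or lower (blue) in OA (right). The median over all genes was 0.02, with 3.20% of genes called higher and 2.20% lower; the lists were not tested as sets.

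Of 31 genes of glycolysis, glycogen and pentose phosphate 5 were called higher: GBE1, the glycogen phosphorylase PYGL (0.59) and the hexokinases HK1 (0.39), HK2 (0.97) and HK3 (0.92). HK3, the form typical of myeloid cells, lay between 5812 and 14222 in healthy horses and between 14721 and 32600 in OA, without overlap, and its change was 0.12 with the covariate. The median of the list was 0.19, and -0.17 with the covariate. CPT1A, which commits fatty acids to mitochondrial oxidation, was higher by 1.45 (SE 0.33, adjusted p = 0.0255), with a range of 810 to 2519 in healthy horses and 1155 to 6471 in OA, where OA_4110 was lowest. SLC22A5, a carnitine transporter, was higher in every OA horse (1.02, SE 0.20). The cholesterol esterifying enzyme SOAT1 (0.64) was higher and the sterol synthesis enzyme SQLE lower (-0.51). GLUL, glutamine synthetase, was higher by 1.41 (SE 0.27), and BCAT1, which starts the breakdown of branched-chain amino acids, by 1.48 (SE 0.32). Of 21 hypoxia-inducible genes EGLN3 (0.82), NDRG1 (0.79) and PDK1 (0.72) were higher, and they were at 0.13, 0.06 and 0.01 with the covariate. In iron handling STEAP3 (0.85) and SLC11A2 (0.59) were higher. None of 31 nuclear-coded respiratory chain genes was called by limma, edgeR or DESeq2 (median -0.18; 0 had an unadjusted p below 0.05 in limma). That median was -0.051 without ORC_197 and ORC_202, and -0.31 with the monocyte covariate, where all 31 changes were negative.

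Calls among nucleotide synthesis and DNA replication genes were all lower. Of 26 genes of nucleotide and one-carbon metabolism 5 were called lower and none higher. IMPDH2, the rate-limiting enzyme of guanine nucleotide synthesis, lay between 2885 and 4666 in healthy horses (median 3353) and between 1639 and 2604 in OA (median 2259), without overlap (change -0.66, SE 0.13, adjusted p = 0.0178), and was at -0.62 with the monocyte covariate. The serine synthesis enzyme PHGDH (-0.89) and the replication enzymes RRM2 (-1.22), TYMS (-0.82) and TK1 (-1.21) were the others. Of 33 DNA replication genes 10 were lower, all 33 changes were negative and the median was -0.60, or -0.47 with the covariate. Of 36 genes of mitosis and kinetochore 11 were lower (median -0.89, and -0.84 with the covariate). Among tubulins and myosins 4 of 47 were called lower and none higher (8.51%, against 5.40% of all genes called). Of the 47 changes 26 were positive (median 0.04). The 4 were all tubulins: TUBB3 (-1.33), TUBB (-0.56), TUBA4A (-0.60) and TUBG1 (-0.60). The repair genes EXO1 (-1.42) and BLM (-0.60) were lower.

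Genes of protein synthesis had small negative changes and few calls. Of 66 cytosolic ribosomal protein genes 65 had negative changes, with a median of -0.35, and none was called by limma or edgeR (15 and 25 had an unadjusted p below 0.05), while DESeq2 called 7 lower. The highest list means were those of healthy horses ORC_197 (14.9) and ORC_202 (14.9), and without both the median was -0.17. With the monocyte covariate it was -0.42. Limma called none of 71 mitochondrial ribosomal protein genes (66 negative, median -0.25; 21 with an unadjusted p below 0.05), of which edgeR called 1 and DESeq2 9 lower. It called none of 34 proteasome genes (32 negative, median -0.21; 9 with an unadjusted p below 0.05), of which edgeR called 0 and DESeq2 1. The nucleolar proteins NOP58 (-0.40) and DKC1 (-0.42) were called lower among 25 genes of ribosome biogenesis. Of 30 interferon response genes 1 was called, USP18 (-0.95), and the list median was -0.34. That median turned to 0.60 with depth as a covariate and was -0.21 with the monocyte covariate. No gene was called by limma of 17 for MHC class I presentation, 17 for MHC class II presentation, 36 chromatin modifiers or 41 histones, where 4, 4, 11 and 6 had an unadjusted p below 0.05. On these lists edgeR called 0, 0, 2 and 0, and DESeq2 0, 1, 4 and 1.

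Extracellular nucleotide, redox and lipid mediator genes gave single calls in both directions. ENTPD1 (0.87), the ectonucleotidase CD39, and ENTPD3 (1.21) were higher, while ADA, adenosine deaminase, was lower (-0.57), as was the lysophosphatidylserine receptor P2RY10 (-0.58). ENTPD3 kept 1.34 with the covariate and ENTPD1 was at 0.11. PRDX2, a peroxiredoxin that is abundant in red cells, fell from 744 to 3677 in healthy horses to 241 to 690 in OA (change -1.65, SE 0.34), while the 8 erythroid markers had positive changes in 7 cases (median 1.45), with 0 called by limma and 2 called higher by DESeq2. NQO1 was lower (-0.52), whereas NFE2L2, the factor known to induce it, was higher (0.70) and was at -0.03 with the covariate. TBXAS1, thromboxane synthase, was higher (1.04) and PTGES2, a prostaglandin E synthase, lower (-0.54).

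Families defined by name were counted beside the 5.40% of all genes that were called. Of 219 solute carriers 13 were higher and 3 lower (7.31%), among them SLC22A5, the nucleoside transporter SLC29A2 (1.42) and the amino acid transporter SLC38A5 (-0.66), none of which overlapped between groups. Of 30 ABC transporters 4 were higher, including ABCC4, an exporter of cyclic nucleotides and prostaglandins (medians 142.6 in healthy horses and 342 in OA, adjusted p = 0.0252), and ABCA3 (0.66), a lipid transporter of lysosome-related organelles. The potassium channel KCNK13 (1.63) and the calcium pumps ATP2B1 (0.76) and ATP2B4 (0.82) were higher among 27 ion channel and calcium genes. The forkhead factors FOXN3 (0.84) and FOXO3 (0.78) were higher and FOXM1 (-0.94), which drives mitotic genes, lower. Of 264 zinc finger genes named ZNF, 3 were higher and 2 lower (1.89%). TYK2 was higher in every OA horse (0.44) and STAT5A lower (-0.30) among 18 genes of JAK-STAT signalling.

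Several of the largest changes concerned genes that are low in blood. With the same limit on the average, FN1 was followed by SALL3, a developmental transcription factor that lay between 0 and 68.6 in healthy horses and between 106 and 283 in OA (2.77, SE 0.69). PLCB1 (1.91), SNAP91 (1.88), KCNK4 (1.86), PLXDC2 (1.78), SNAI1 (1.74) and UNC5A (1.74) followed EPS8 and THBS1. SNAI1 was at 462 in OA_1038 and at 37.3 to 179 in the other OA horses. By the same rule the largest falls were those of FGF19 (-2.76, SE 0.53), GFRA1, KRT24 (-2.53, SE 0.62), DEGS2, LRFN1, AIRE (-1.88) and IGF2BP3 (-1.84). FGF19 lay between 21.8 and 229 in healthy horses and between 4.26 and 35.6 in OA. Among genes without a symbol the largest rise was 4.31 (ENSECAG00000021580), with 11.1 to 784 in healthy horses and 27.1 to 3341 in OA, and ENSECAG00000019204 had a change of -3.09 and was called whichever library was left out.

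Among tested genes ordered along the chromosomes, 37 pairs of neighbours were called in the same direction; how many would be so by chance was not tested. C5AR1, C5AR2 and DHX34 (0.67), a helicase of RNA decay, lie in a row on chromosome 10 (17645549 to 17692638). The adjacent genes AMDHD1 and HAL on chromosome 28 (21923809 to 21966913) encode enzymes of histidine breakdown and rose by 1.19 (SE 0.31) and 1.69 (SE 0.43). AMDHD1, HAL and DHX34 were named after their values were seen. HAL lay between 5.73 and 68.2 in healthy horses and between 43.4 and 169 in OA.

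The effect of OA was compared with that in synovial fluid cells of the same study, where the difference between effects was called for 22.3% of 12733 genes. Of the genes higher in OA blood 64 of 411 differed (15.6%, below the share of all genes), and of those lower 90 of 281, a share above it. With the replicate block of horse, which 13 horses with both samples allow, the counts were 86 of 411 (20.9%) and 70 of 281 (24.9%), against 22.8% of all genes. Of the 411 higher genes 126 were called in the same direction in fluid and 15 in the opposite direction, and of the 281 lower genes 84 and 14. Among all 12733 genes, called in blood or not, fluid calls went with the blood sign in 1933 and against it in 1619. Of the 20 stable genes with a symbol measured in both, 2 differed. AEBP1 was lower in blood and 2.69 in fluid (adjusted p = 0.094 there), a difference of -4.24 (SE 1.06, limma adjusted p = 0.00598), and PAFAH2 differed by -1.13 (SE 0.33, adjusted p = 0.0148). Differences given for single genes are from the fit without the horse block. ARSB, HGSNAT, GBE1 and FOSL2 were called higher in fluid as well (0.84, 0.90, 0.84 and 1.33). Of the genes called in both blood and fluid in opposite directions, 8 are among those named here. TNFSF14, IGF2R, APBA1 (0.92 in blood), an adaptor protein, and ARHGAP39 (0.43 in blood), a GTPase-activating protein, were higher in blood and lower in fluid (-2.19, -0.81, -1.25 and -0.75). CCR6, GAS6, IMPDH2 and MYB were lower in blood and higher in fluid (2.02, 1.90, 0.78 and 1.22). The difference was called for each of the 8. They were picked as called in opposite directions in these same libraries, so this was close to fixed in advance.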

How the data were processed

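RNA of frozen PBMC pellets was enriched for mRNA with oligo(dT) beads and sequenced from TruSeq libraries, per the labels' protocols. Each deposited value is a normalized signal: reads per gene over a size factor that the authors computed per library by the median-ratio method, separately for blood and fluid. The submitters' processing notes name Partek, cutadapt, STAR 2.7.3, HTSeq and DESeq, and the build EquCab3.0. How they were set, and whether counting used strand, is not given in these sources, so overlapping genes cannot be told apart. The blood table holds 17410 genes. Whole reads were recovered for at least 99.8% of the values in each library (within 0.1 of a read), which gives the depth. P-values measure the spread among these horses.

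Genes with a mean of at least 10 (13072) were compared on log2(value + 1) by limma (version 3.58.1, R 4.3.3; mean-variance trend, robust), two-sided and unpaired, with Benjamini-Hochberg adjustment at 0.05. This log2 scale understates the change of low genes. On the recovered reads edgeR 4.0.16 (quasi-likelihood) called 505 genes higher and 302 lower, and DESeq2 1.42.0 called 935 and 750. Other alternatives were the pseudocount, the filter, the scaling, thinning to equal depth, weights per library, covariates (depth, monocyte and B cell list means) and each library left out. Leaving out ORC_197 and ORC_202 together was chosen after seeing the data. Libraries of a group differed beyond sampling noise (smallest chi-square per gene 37.6). The steps were tested on simulated data.

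The comparison, the 70 gene lists and the 34 families were chosen with earlier results of these data known, so lists are described by counts and medians, with no test. Genes with a symbol were named as the 12 largest rises and falls and the next 10 of smallest p in each direction (mean of at least 50 in the group where the gene is higher), and as up to 5 called genes of smallest p from a list or family, beside cell markers. The effect in blood minus that in fluid was fitted over all 31 libraries with weights per tissue; 13 horses gave both samples, so the horse numbers pair them. Promoter sequences were not analysed here, and some genes that the rule names are not reported here.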

Additional observations from a re-analysis of the deposited data

Results flagged for a closer look

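In 29 of 358 groups of blood libraries examined (8.10%; chance alone marks about 1 in 20), the highest or lowest library lay far from its neighbours on the log2 scale. Healthy horse ORC_209 accounted for many of them. It was lowest for the monocyte list mean (10.2, against 11.1 to 11.6 in the other healthy horses) and for 9 genes: ENG (787), GLUL (1387), IL10RA (2898), MITF (161), NDRG1 (350), NLRP3 (859), PLAUR (123), SEMA6B (407) and TBXAS1 (627).

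Healthy horse ORC_202 was lowest for BLK (1036), SALL3 (0), SMC4 (1874), TUBB (10888), STAT5A (6995) and the platelet list mean (4.79). ORC_197 was lowest for AMDHD1 (15.6), ATP2B4 (1470), BACH1 (344) and TYK2 (9886). ORC_188 was lowest for CCR6 (349) and ORC_205 for GAS6 (273), and ORC_192 was highest for the dendritic cell list mean (9.72). Among OA horses OA_9350 was lowest for CCR10 (21.2), CCR7 (1542) and ID3 (1197), OA_4110 was lowest for IGF2R (5906) and highest for RTP4 (229), and OA_1038 was lowest for the dendritic cell list mean (8.11).

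The effect of OA differed between blood and fluid, by limma over all genes of both tables, for AEBP1 (blood minus fluid -4.24, adjusted p = 0.00598), PAFAH2 (-1.13, adjusted p = 0.0148), APBA1 (2.17, adjusted p = 0.000583), ARHGAP39 (1.18, adjusted p = 0.00434), CCR6 (-3.17, adjusted p = 0.00132), GAS6 (-3.08, adjusted p = 0.00242), IGF2R (1.62, adjusted p = 0.00149), IMPDH2 (-1.44, adjusted p = 0.000583), MYB (-1.75, adjusted p = 0.00399) and TNFSF14 (2.87, adjusted p = 0.000382). This fit did not use the horse block. All but AEBP1 and PAFAH2 had been picked as called in opposite directions in blood and fluid in these same libraries. For those genes a called difference was close to fixed in advance.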

How the results depend on the processing

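The called genes higher in OA PBMC numbered 418 and the genes lower in OA PBMC 288. The genes higher in OA PBMC by at least 2-fold were 1.30% of those tested and the genes lower in OA PBMC by at least 2-fold 0.803%; these shares stand in brackets. DESeq2 gave 935 and 750 (2.27% and 1.59%), weights per library 1370 and 942 (2.91% and 1.86%), and leaving out ORC_197 and ORC_202 835 and 559 (2.27% and 1.38%). With depth, the monocyte list mean or the B cell list mean as a covariate the limma counts were 0, while 2779, 897 and 1477 genes had an unadjusted p below 0.05. Leaving out each library in turn gave 14 to 691 higher and 17 to 519 lower genes (at least 2-fold, 0.0688% to 2.17% and 0.0765% to 1.46%). Pseudocounts of 0.5 and 10, a mean of at least 50, no filter, totals, TMM, no robust option, edgeR and thinning to equal depth kept each count within 1.5 times. Thinned libraries called 408 and 281 genes. Of 165 named genes, 139 lost their call without OA_3850, 140 without OA_9350 and 144 without OA_9570.

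A changed direction was seen with depth as a covariate in FN1 (-0.69) and GPR15 (0.027), and with the monocyte covariate in NFE2L2 (-0.031), SEMA6B (-0.061), TGFBI (-0.021) and TNFRSF1A (-0.022); the cause was not tested. The difference of effects between blood and fluid was called for 2834 genes, for 2897 (22.8%) with the replicate block of horses with paired samples, and with the block as a random effect for 2027 with a more positive and 1751 with a more negative effect in blood.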
